A study of Mus musculus with 6 samples.

Results

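The genes described here are 10 regulators of fat cell identity, the PPARs and the factors that act with them in brown adipocytes: *Pparg*, *Ppara*, *Ppard*, *Ppargc1a*, *Ppargc1b*, *Prdm16*, *Ebf1*, *Ebf2*, *Zfp423* and *Zfp521*. They are 10 of the 26182 genes of the curated RefSeq annotation of mm10, and they were chosen by name, with earlier results of these data known. For each gene, the peaks of Lsd1 chromatin occupancy were taken whose centre lay within the gene or within 10 kb of either end. By that rule 36 of 43426 peaks belonged to these genes in the myogenic library, 20 of 18893 in the adipogenic library and 44 of 33533 in LSD1(OE) cells.

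The data are ChIP-seq for Lsd1 in C2C12 cells, a line of mouse myoblasts, taken on day 1 of differentiation. Wild-type cells were kept either in myogenic medium (2% horse serum) or in adipogenic medium, which held 10% FCS with the Pparg agonist rosiglitazone at 1 µM, dexamethasone (5 µM), insulin (850 nM), T3 (1 nM), indomethacin (125 nM) and isobutylmethylxanthine (0.5 mM). LSD1(OE) cells, a stable C2C12 line with a lentiviral, doxycycline-induced Flag-tagged LSD1, were kept in adipogenic medium. Each of the 3 conditions had 1 ChIP library and 1 input library, so every difference given here is one between single libraries and no difference could be tested. Between the LSD1(OE) library and the adipogenic library, the LSD1 level, the selected line and the doxycycline cannot be told apart. Expression was not measured in these libraries, so neither the cell type nor the level of any of the 10 genes could be checked in them. The paper also has RNA-seq of C2C12 cells on day 1, which was not used here. In adipogenic medium it lists *Ppargc1b* among genes raised by LSD1 overexpression and lowered by Lsd1 knockdown.

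Lsd1 is a histone demethylase that removes methyl groups from lysine 4 of histone H3, most often within the CoREST repressor complex, and it has been linked to the demethylation of lysine 9 as well. Pparg is the nuclear receptor on which fat cell formation depends, and its relatives Ppara and Ppard drive genes of fatty acid oxidation. The coactivators encoded by *Ppargc1a* and *Ppargc1b* dock on these receptors and raise mitochondrial content. Prdm16 directs precursors shared with skeletal muscle towards the brown fat fate, Ebf1 and Ebf2 open enhancers of fat cell genes, Zfp423 commits precursors to the fat lineage while restraining the thermogenic program, and Zfp521 opposes adipogenesis.

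After the removal of duplicates the ChIP libraries held 46155625 tags in the myogenic, 63915769 in the adipogenic and 55193310 in the LSD1(OE) library. The adipogenic library was the deepest and gave the shortest peak list. The share of tags within peaks was 7.12, 3.20 and 5.28%, in the same order. The fewest tags held by a listed peak were 27, 35 and 30, and occupancy too weak to be called was not detectable. The score of a peak is 10 times −log10 of its p-value against the input, and the smallest score of each list was 50. Scores rest on ChIP tags scaled up by a different factor in each library, so their order between libraries can depend on the scaling. Intervals given with tag counts are exact Poisson intervals and those given with shares are Wilson intervals, both at 95% and for counting error only.

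The sequences around peak summits show the kinds of site that carried the Lsd1 signal at these genes. Summit windows of 201 bp are printed from mm10, plus strand, for the strongest peak of each library whose window lay outside exons and not at *Ppargc1b*. Of the other peaks found in all 3 libraries, those at the *Zfp423* promoter, the *Ebf1* promoter and *Ebf1* intron 10 are shown as examples of promoter and intronic sites, and those not shown include the weak peak in *Zfp423* intron 5. These examples, the 200 bp before the start of *Ppard* and the *Pparg* window were picked after the values were seen. The words all 3 libraries in a label mean that the merged region had a peak in each library. At the *Zfp423* promoter the printed window lay within the adipogenic and LSD1(OE) peaks, and the myogenic peak began beyond it, at 87960385. CpG dinucleotides are in capitals.
Ppard promoter, under the myogenic peak, chr17:28232554-28232753: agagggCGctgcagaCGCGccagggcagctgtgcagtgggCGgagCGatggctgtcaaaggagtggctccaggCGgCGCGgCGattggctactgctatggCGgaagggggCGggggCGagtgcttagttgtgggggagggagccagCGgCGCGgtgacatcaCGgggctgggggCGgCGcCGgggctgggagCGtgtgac
Zfp423 promoter, LSD1(OE) summit, all 3 libraries, chr8:87960126-87960326: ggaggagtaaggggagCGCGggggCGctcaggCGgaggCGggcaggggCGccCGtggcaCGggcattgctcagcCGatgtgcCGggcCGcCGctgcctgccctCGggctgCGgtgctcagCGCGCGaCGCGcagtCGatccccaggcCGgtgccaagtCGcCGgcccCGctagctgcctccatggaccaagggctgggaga
Ebf1 promoter, myogenic summit, all 3 libraries, chr11:44617093-44617293: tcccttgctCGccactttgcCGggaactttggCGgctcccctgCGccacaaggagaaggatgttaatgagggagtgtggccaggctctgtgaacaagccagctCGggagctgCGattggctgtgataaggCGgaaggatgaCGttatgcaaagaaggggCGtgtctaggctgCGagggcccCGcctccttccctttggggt
Ppard upstream, strongest such myogenic peak, all 3 libraries, chr17:28224210-28224410: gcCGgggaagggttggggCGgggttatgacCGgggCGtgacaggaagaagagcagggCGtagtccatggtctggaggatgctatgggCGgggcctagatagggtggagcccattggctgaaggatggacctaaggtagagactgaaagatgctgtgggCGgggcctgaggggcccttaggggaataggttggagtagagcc
Ppard intron 2, strongest such adipogenic peak, all 3 libraries, chr17:28280159-28280359: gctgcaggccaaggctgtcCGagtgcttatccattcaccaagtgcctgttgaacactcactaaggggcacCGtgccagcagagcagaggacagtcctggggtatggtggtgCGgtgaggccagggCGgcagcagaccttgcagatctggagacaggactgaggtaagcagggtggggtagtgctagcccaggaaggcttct
Ppard intron 1, strongest such LSD1(OE) peak, chr17:28236566-28236766: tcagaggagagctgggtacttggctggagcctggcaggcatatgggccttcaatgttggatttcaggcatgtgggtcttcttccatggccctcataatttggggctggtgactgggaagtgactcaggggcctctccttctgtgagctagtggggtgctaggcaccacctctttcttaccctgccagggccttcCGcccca
Ebf1 intron 10, myogenic summit, all 3 libraries, chr11:44948505-44948705: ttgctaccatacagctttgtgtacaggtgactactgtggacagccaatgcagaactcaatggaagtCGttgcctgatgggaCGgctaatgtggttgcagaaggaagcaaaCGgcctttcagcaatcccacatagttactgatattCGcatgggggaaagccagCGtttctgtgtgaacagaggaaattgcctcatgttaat
Pparg intron 2, LSD1(OE) summit, chr6:115424594-115424794: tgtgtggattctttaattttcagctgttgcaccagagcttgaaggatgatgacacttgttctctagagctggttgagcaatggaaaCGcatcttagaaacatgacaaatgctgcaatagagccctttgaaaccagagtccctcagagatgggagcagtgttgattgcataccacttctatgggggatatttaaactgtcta

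The promoter windows were rich in CpG and the intronic windows were poor in it. The *Zfp423* promoter window held 24 CpGs and the *Ppard* promoter window 20, against 1 CpG each in the LSD1(OE) windows of *Ppard* intron 1 and *Pparg* intron 2. The *Ebf1* promoter window held 11 CpGs and the *Ebf1* intron 10 window 5. Expressed as observed over expected CpG, summit windows within 2000 bp of any transcription start site (TSS) had a median of 0.861 in the myogenic library (12 windows), 0.649 in the adipogenic library (6) and 0.726 in LSD1(OE) cells (9). Away from TSSs the medians were 0.218 (24 windows), 0.278 (14) and 0.207 (35). All peaks of the libraries had the same contrast, with promoter medians of 0.728, 0.725 and 0.714 and medians elsewhere of 0.189, 0.200 and 0.192.

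**Figure D1:**
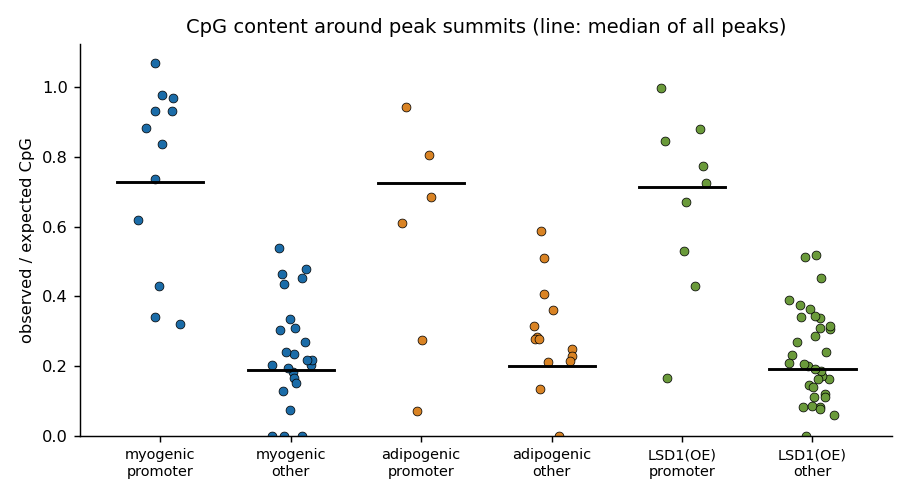
Observed over expected CpG in the 201 bp around each peak summit of the 10 genes, split by library and by whether the peak centre lay within 2000 bp of a TSS of any gene. Each point is 1 peak and each black line is the median of all peaks of that library and class. Promoter windows reach 1.07 in myogenic medium, while windows elsewhere stay at or below 0.589 in every library. The classes overlap, since the lowest promoter window is at 0.319 in the myogenic, 0.0701 in the adipogenic and 0.166 in the LSD1(OE) library.

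Sites for the receptors named above were not found in these windows. No summit window of the 10 genes held the PPAR element DR1 (AGGTCANAGGTCA, both strands) or the palindromic glucocorticoid element (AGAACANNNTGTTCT), which were found in 13 and 4 of all 43426 myogenic windows. These letters are strict, so their absence says nothing of the factors. The Ebf motif (TCCCNNGGGA) was in 1 myogenic window of these genes, or 2.78%, against 0.852% of all myogenic windows. The E-box CAGCTG was in 5 of 36 myogenic windows (13.9%, against 19.3% of all), 6 of 20 adipogenic windows (30%, against 22.0%) and 8 of 44 LSD1(OE) windows (18.2%, against 19.2%). The E-box CACCTG was in 4, 4 and 5 windows (11.1, 20 and 11.4%, against 16.5, 20.2 and 19.4% of all). The AP-1 element TGACTCA was in 4, 1 and 7 windows (11.1, 5 and 15.9%, against 11.0, 12 and 10.4%), among them the *Ppard* intron 1 window printed above. The motif for Mef2, a muscle factor, was in 1 myogenic window (2.78%, against 2.30% of all), no adipogenic window (1.64% of all) and 1 LSD1(OE) window (2.27%, against 1.58%).

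Of the 10 genes, 8 had an Lsd1 peak in myogenic medium (80%, interval 49.0 to 94.3%), where 62.5% of all genes had one. In adipogenic medium 6 had a peak, against 41.2% of all genes, and in LSD1(OE) cells 7 had one, against 53.9%. A peak within 2000 bp of a TSS of the gene, called a promoter peak, was found at 7 of the 10 in myogenic medium (interval 39.7 to 89.2%), against 46.8% of all genes. In adipogenic medium 3 had a promoter peak (interval 10.8 to 60.3%), against 27% of all genes. In LSD1(OE) cells 6 had one (interval 31.3 to 83.2%), against 37.3%. The last count fell to 3 with an FDR of at most 0.1% and with equal peak numbers. It fell to 3 too with ChIP tags not scaled up, where scores were divided by the scaling and peaks under 50 dropped. The weak promoter peaks of *Pparg*, *Ppara* and *Ebf2* were lost each time. The adipogenic count fell to 1 at that FDR, where *Ebf1* and *Zfp423* lost theirs. The share over all genes lay within the interval of the 10 genes in each of these comparisons, which were made on all deposited peaks.

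By gene, *Ppard*, *Ppargc1b*, *Ebf1* and *Zfp423* held most of the peaks. *Ppard* had 9, 5 and 8 peaks in the myogenic, adipogenic and LSD1(OE) libraries, *Ppargc1b* had 7, 6 and 12, *Ebf1* had 8, 4 and 10, and *Zfp423* had 7, 3 and 7. *Pparg* had 2, 1 and 4 and *Ppara* 1, 1 and 2. *Ebf2* had 1, 0 and 1, and *Ppargc1a* had 1 peak in myogenic medium and none in the others. No peak was found at *Prdm16* or *Zfp521* in any library. The order of the libraries depended on the length of the lists: with the 18893 strongest peaks of each library, the 10 genes held 17, 20 and 25 peaks in place of 36, 20 and 44.

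**Figure D2:**
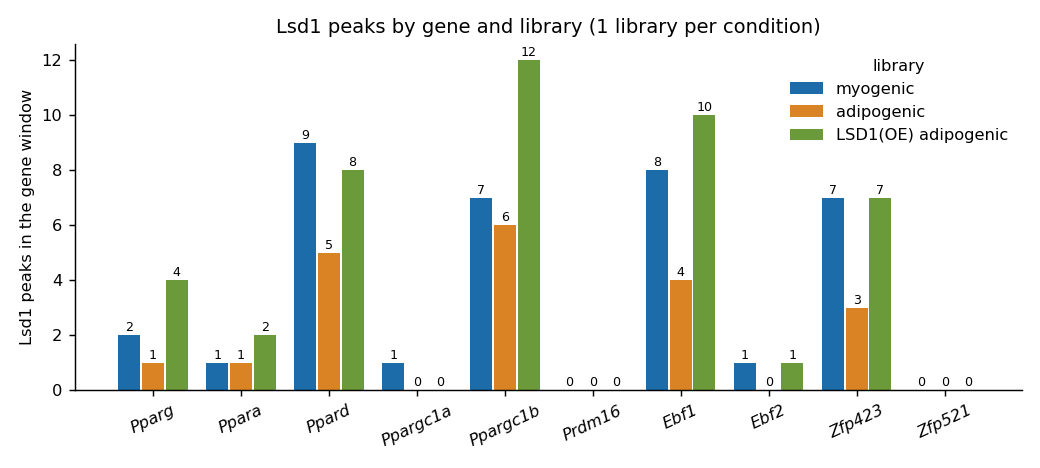
Number of Lsd1 peaks whose centre lay within each gene or 10 kb of it (vertical axis) for the 10 genes, with 1 bar per library and 1 library per condition. *Ppargc1b* reaches 12 peaks in LSD1(OE) cells, the adipogenic bar is the lowest or shares the lowest count at every gene, and *Prdm16* and *Zfp521* stay at 0.

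*Pparg* (chr6:115360951-115490401, plus strand) had its strongest peak at the first promoter, the one of the Pparg1 transcripts, and only in myogenic medium was that peak strong. The myogenic peak (chr6:115360714-115362175) held 100 tags (interval 81.4 to 122) and scored 328, higher than 79.1% of all myogenic peaks. In LSD1(OE) cells a peak of 39 tags (interval 27.7 to 53.3) and a score of 56.5 lay within the same stretch, and it was lost under each of the 3 stricter settings. The adipogenic library had no peak there. Of all 2100 myogenic peaks that scored within 10% of this one, 61.1% overlapped an adipogenic peak, and the remainder, like *Pparg*, did not.

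Further into *Pparg*, Lsd1 peaks were found in both adipogenic libraries. In LSD1(OE) cells a peak with a score of 140 (68 tags, interval 52.8 to 86.2) lay in intron 2, 2431 bp beyond the start of the fat cell transcript Pparg2, whose sequence is printed above. Neither the myogenic nor the adipogenic library had a peak there, and no library had one within 2000 bp of that start. Among all LSD1(OE) peaks with a score within 10% of 140, 66.3% overlapped a myogenic peak and 40.4% an adipogenic one. Around intron and exon 6, 102 kb from the first TSS, the adipogenic library had a peak of 103 tags (score 128). The LSD1(OE) library had one of 58 tags (score 101) there, while the myogenic library had none. Among all adipogenic peaks with a score within 10% of 128, 85.2% overlapped a myogenic peak. Among LSD1(OE) peaks with a score within 10% of 101, 53.2% did. The remaining peaks were an LSD1(OE) peak with a score of 51.4 in intron 7 and a myogenic peak with a score of 167 beyond the 3′ end of the gene.

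*Ppara* (chr15:85735564-85806851, plus strand), the receptor of fatty acid oxidation in liver and brown fat, had no peak within the gene in any library. The LSD1(OE) library had a weak peak of 41 tags (score 53.5) at its promoter, 240 bp before the first TSS, which was lost under each of the same settings. A strong peak of all 3 libraries scored 825 in the myogenic, 173 in the adipogenic and 372 in the LSD1(OE) library. It lay beyond the 3′ end of *Ppara*, at 400, 166 and 132 bp from the TSS of the neighbouring gene *Cdpf1*, and came under *Ppara* only through the 10 kb margin. Its tag density, in tags per kb of the peak as called in that library and per 1000000 tags, was 1.97, 1.26 and 1.38, highest in myogenic medium. Chromosome 15 held more peaks than other autosomes in these libraries, with 3.59 per 100 kb against 1.66 in the myogenic library, 1.90 against 0.714 in the adipogenic library and 2.74 against 1.29 in LSD1(OE) cells. The part of this in the *Ppara* peak was not tested.

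*Ppard* (chr17:28232754-28301469, plus strand), the widely expressed PPAR, was the receptor gene with the most Lsd1 peaks. At its promoter the myogenic library had a peak 143 bp before the TSS, with 61 tags (interval 46.7 to 78.4) and a score of 212, and a weaker one (score 58.9) in intron 1. Neither of the adipogenic and LSD1(OE) libraries had a peak within 2000 bp of this TSS. Of all myogenic peaks with a score within 10% of 212, 43.4% overlapped an adipogenic peak and 57.7% an LSD1(OE) peak.

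3 regions around *Ppard* had a peak in all 3 libraries. The strongest lay 8.8 kb before the TSS inside the neighbouring gene *Def6*, with scores of 946 in the myogenic, 227 in the adipogenic and 262 in the LSD1(OE) library, and with 184, 133 and 94 tags. The region next to it, also in *Def6*, scored 98.1, 171 and 150 and was lowest in myogenic medium. The region in intron 2, 47.4 kb from the TSS, scored 493, 268 and 351. At the first of these the density was 1.93 in the myogenic library, above 1.38 in the adipogenic library and 1.37 in LSD1(OE) cells.

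Within the gene the libraries differed. In LSD1(OE) cells alone a peak of 127 tags (interval 106 to 151, score 371) lay in intron 1, 3.65 kb from the TSS and apart from the myogenic promoter peaks. Among all LSD1(OE) peaks with a score within 10% of it, 90.2% overlapped a myogenic peak and 80.4% an adipogenic one. In intron 2, peaks at 15.0 kb and 24.3 kb were found in the adipogenic library (scores 142 and 114) and the LSD1(OE) library (197 and 269) and not in the myogenic one. Myogenic peaks of intron 2 at 16.5 kb (score 165) and 27.4 kb (score 141) were found in that library only. Of all myogenic peaks with scores within 10% of these, 34.6 and 30.2% overlapped an adipogenic peak and 50.1 and 45.0% an LSD1(OE) one. For the peaks at 15.0 kb and 24.3 kb, 88.2 and 82.7% of adipogenic peaks with such scores overlapped a myogenic one. Of LSD1(OE) peaks with such scores, 76.2 and 84.3% did.

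**Figure D3:**
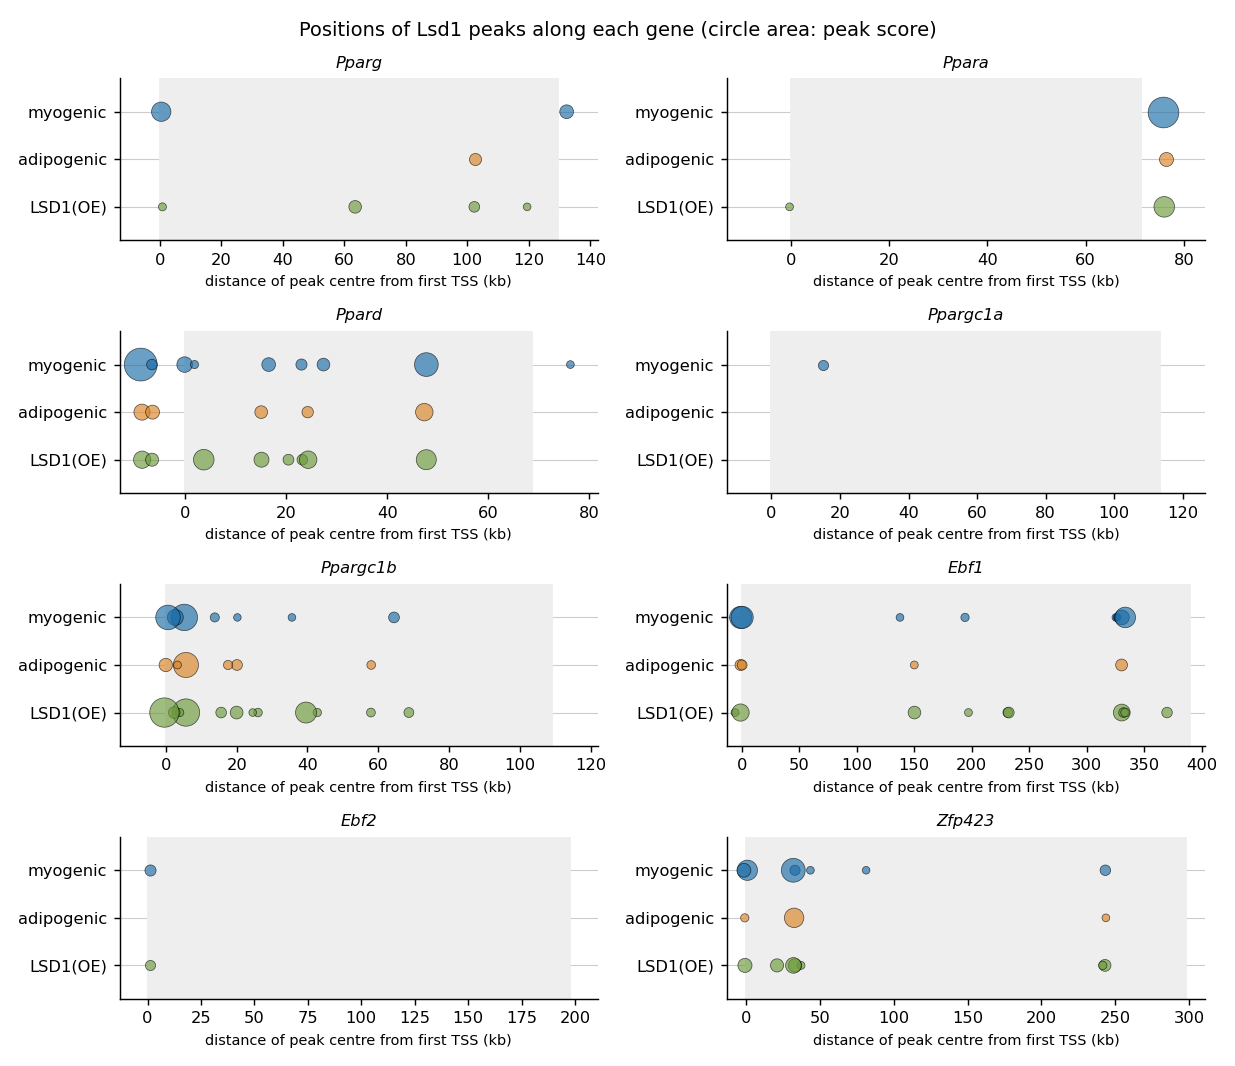
Lsd1 peaks along the 8 genes that had any, by distance of the peak centre from the first TSS in kb (horizontal axis), with 1 row per library. Circle area is proportional to the peak score and the grey band is the gene. At *Pparg* the large myogenic circle stands at the first TSS and the adipogenic circle at 102 kb, and at *Ppard* the LSD1(OE) row alone has a circle at 3.65 kb.

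The genes of the PPAR coactivators were unlike each other. *Ppargc1a* (chr5:51454249-51567725, minus strand), which encodes PGC-1α, had a single peak, of 38 tags (interval 26.9 to 52.2) and a score of 92.4, in myogenic medium. It lay in intron 1, 1102 bp downstream of the start of the coding transcript. Divided by the scaling of the ChIP tags, its score was 48.7, a little under the smallest listed score of 50. The adipogenic and LSD1(OE) libraries had no peak in the window of the gene, and the nearest ones beyond the gene were 547 kb and 14.0 kb away. A pattern of a peak in myogenic medium only was found at 9.66% of all genes. At *Ppargc1a* this pattern depended on the annotation. With all RefSeq transcripts in place of the curated ones, the gene gained a promoter peak in the adipogenic and LSD1(OE) libraries.

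*Ppargc1b* (chr18:61291445-61400412, minus strand), which encodes PGC-1β, had the strongest adipogenic and LSD1(OE) peaks of the 10 genes. Peaks of all 3 libraries followed one another over chr18:61393503-61402083, from before the promoter into intron 1, where the gene of the microRNA miR-378a lies. This stretch held 3, 3 and 4 peaks in the myogenic, adipogenic and LSD1(OE) libraries. Its promoter peaks scored 529, 157 and 755 with 177, 98 and 222 tags, so the score was lowest in adipogenic medium and highest in LSD1(OE) cells. The peak in intron 1 scored 612, 550 and 655 with 153, 208 and 215 tags. Divided by the scaling of the ChIP tags, its scores were 323, 431 and 359, highest in adipogenic medium. The peaks of the stretch covered 5981, 4019 and 6577 bp and held 411, 357 and 532 tags in all. Within these peaks the density was 1.49, 1.39 and 1.47. Without division by the length, the peaks held 8.90, 5.59 and 9.64 tags per 1000000 tags of the library, which was lowest in adipogenic medium.

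Deeper in *Ppargc1b* the LSD1(OE) library had peaks that the others lacked. In intron 2, 39.6 kb from the TSS, an LSD1(OE) peak held 150 tags (interval 127 to 176) and scored 385, with no peak of the other libraries. Of all LSD1(OE) peaks with a score within 10% of it, 89.8% overlapped a myogenic peak and 81.3% an adipogenic one. At 20.1 kb from the TSS all 3 libraries had a peak, with scores of 50.2 in the myogenic, 103 in the adipogenic and 143 in the LSD1(OE) library. The other peaks of the gene outside the stretch at its start scored 102 or less.

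*Prdm16* (chr4:154316125-154636873, minus strand) had no peak in its window in any library. The nearest peak beyond the gene was 67.6 kb away in the myogenic library, 490 kb in the adipogenic library and 155 kb in LSD1(OE) cells. *Zfp521* (chr18:13687013-13972733, minus strand) had none either, with the nearest peaks 359, 359 and 675 kb away. A long gene without a peak was common: of the 604 genes with a window of at least 300 kb, 34.1% had no peak in the myogenic library, 55.0% in the adipogenic library and 39.7% in LSD1(OE) cells. A pattern of no peak in any library was found at 33.6% of all genes.

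*Ebf1* (chr11:44618100-45008096, plus strand), a factor of B cell and fat cell development, had promoter peaks in all 3 libraries. The peak 1.0 kb before the first TSS scored 430 in the myogenic, 109 in the adipogenic and 261 in the LSD1(OE) library, with 103, 84 and 80 tags and densities of 1.74, 1.09 and 1.54. The myogenic density was the highest, and the adipogenic density the lowest. The myogenic interval (1.42 to 2.11) overlapped that of LSD1(OE) cells (1.22 to 1.92). A peak 0.31 kb inside the gene scored 432 in myogenic medium and 86.3 in adipogenic medium and was absent from LSD1(OE) cells.

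The far end of *Ebf1* carried a further group of peaks. In intron 10, 331 kb from the first TSS, all 3 libraries had a peak, with scores of 194, 123 and 248 and with 71, 83 and 83 tags. Its density was 1.32, 1.21 and 1.42, highest in LSD1(OE) cells. A neighbouring peak at 334 kb scored 371 in myogenic medium and 67.7 in LSD1(OE) cells, and the adipogenic library had none. Of all myogenic peaks with a score within 10% of 371, 66.1% overlapped an adipogenic peak. In intron 6, 150 kb from the TSS, the adipogenic library had a peak with a score of 54.5 and the LSD1(OE) library one of 140. Chromosome 11 also held more peaks than the other autosomes, 2.94 against 1.68 per 100 kb in myogenic medium.

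*Ebf2* (chr14:67233292-67430952, plus strand), which marks committed brown preadipocytes, had 1 peak, at 22 bp from its second TSS in myogenic medium and 28 bp in LSD1(OE) cells. The centre also lay within 2000 bp of the first TSS, at 1330 and 1380 bp. The peak held 51 tags (interval 38.0 to 67.1, score 109) in myogenic medium and 55 tags (interval 41.4 to 71.6, score 91.1) in LSD1(OE) cells. The adipogenic library had no peak there, and its nearest peak beyond the gene was 125 kb away. Of all myogenic peaks with a score within 10% of this one, 22.0% overlapped an adipogenic peak. The LSD1(OE) peak was lost under each of the 3 stricter settings and the myogenic one with equal peak numbers.

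*Zfp423* (chr8:87661810-87959595, minus strand) had the strongest of its peaks in intron 1. At 32 kb from the first TSS the highest peak scored 497 in the myogenic, 331 in the adipogenic and 215 in the LSD1(OE) library, with 118, 202 and 84 tags. Divided by the scaling of the ChIP tags, these scores were 262, 260 and 118. The peaks of the merged region there covered 2214, 2322 and 2107 bp, with 159, 202 and 153 tags and densities of 1.56, 1.36 and 1.32. At the promoter all 3 libraries had a peak before the TSS, with scores of 169, 60.0 and 175 and with 74, 53 and 78 tags, lowest in adipogenic medium. A peak in intron 1, 0.9 kb from the TSS, held 141 tags (interval 119 to 166, score 359) in myogenic medium and was found in neither of the others. Of all myogenic peaks with a score within 10% of it, 64.4% overlapped an adipogenic peak and 78.4% an LSD1(OE) peak. In intron 5 a weak peak of all 3 libraries scored 97.7, 52.0 and 124.

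**Figure D4:**
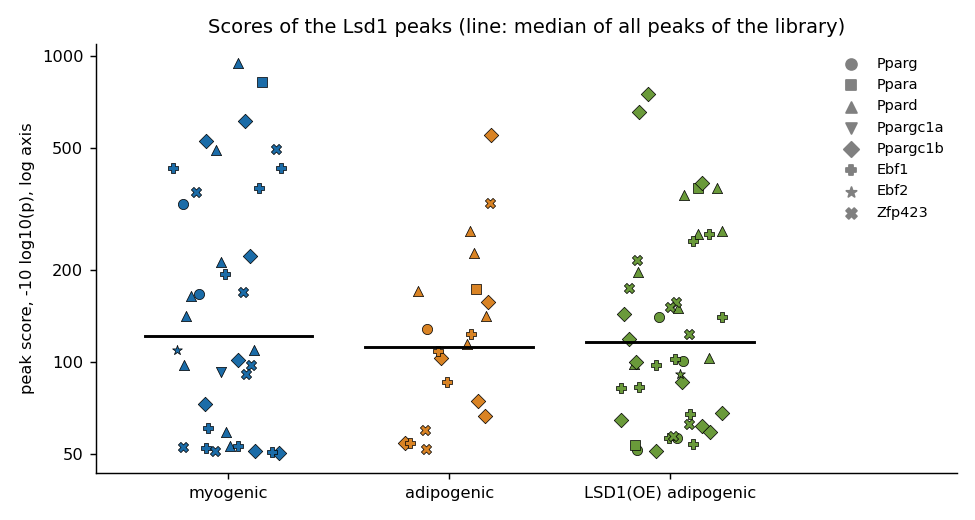
Scores of the 36, 20 and 44 Lsd1 peaks of these genes (vertical log axis, 10 times −log10 of the p-value), with 1 point per peak, 1 marker per gene and a black line at the median of all peaks of the library. The points lie on both sides of the line in each library, from about the smallest score of 50 up to 946 in the myogenic, 550 in the adipogenic and 755 in the LSD1(OE) library.

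Many of these peaks were weak, as were many peaks elsewhere. A score under 100 was found in 15 of the 36 myogenic peaks (41.7%, against 43.7% of all), 7 of the 20 adipogenic peaks (35%, against 44.1%) and 20 of the 44 LSD1(OE) peaks (45.5%, against 44.1%). The centre lay in an intron, of these genes or a neighbour, for 29 of 36 myogenic peaks (80.6%, against 56.0% of the peaks in any gene window), 14 of 20 adipogenic peaks (70%, against 51.8%) and 36 of 44 LSD1(OE) peaks (81.8%, against 56.3%). It lay within 2000 bp of a TSS of any gene for 12, 6 and 9 of them (33.3, 30 and 20.5%, against 37.4, 45.0 and 38.4%). The 10 genes span 68.7 to 390 kb, and these shares were not matched for gene length, whose part was not tested. The windows of the 10 genes summed to 2184 kb, and their peaks per 100 kb were 1.65, 0.916 and 2.01, against 1.65, 0.717 and 1.27 over the genome. The windows of all genes, summed in the same way, had 2.99, 1.35 and 2.27 per 100 kb. Taken gene by gene, the median of the 10 genes was 1.22, 0.807 and 2.20 per 100 kb, against 2.38, 0 and 1.17 for all genes. In the myogenic library the 10 genes were below all genes both ways. In the adipogenic and LSD1(OE) libraries they were below by the summed windows and above by the median.

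The comparison of myogenic with adipogenic medium asks whether Lsd1 sits at the same sites of these genes when the cells are pushed towards muscle or towards fat. Of the 36 myogenic peaks, 15 overlapped an adipogenic peak by at least 1 bp (41.7%, interval 27.1 to 57.8%), against 35.4% of all myogenic peaks. Of the 20 adipogenic peaks, 14 overlapped a myogenic peak (70%, interval 48.1 to 85.5%), against 80.5% of all. The 6 that did not lay in *Pparg*, *Ppard*, *Ppargc1b* and *Ebf1*, all in introns. With equal peak numbers the share of myogenic peaks that overlapped an adipogenic one was 64.7%, against 62.0% of all.

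LSD1(OE) cells were set beside wild-type cells in the same adipogenic medium. Of the 20 adipogenic peaks, 18 overlapped an LSD1(OE) peak (90%, interval 69.9 to 97.2%), against 74.5% of all adipogenic peaks. Of the 44 LSD1(OE) peaks, 19 overlapped an adipogenic peak (43.2%, interval 29.7 to 57.8%), against 42% of all. Beside the myogenic library, 18 of 36 myogenic peaks overlapped an LSD1(OE) peak (50%, interval 34.5 to 65.5%), against 46.5% of all. In the other direction, 19 of 44 LSD1(OE) peaks overlapped a myogenic peak (43.2%, interval 29.7 to 57.8%), against 59.8% of all. The last was the only one of these 6 shares whose interval did not reach the value of all peaks, and several peaks of 1 gene are not independent of each other.

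Merging the overlapping peaks of the libraries gave 59 regions at the 10 genes. A peak in all 3 libraries was found in 11 of them (18.6%, interval 10.7 to 30.4%), against 20.6% of the 56729 regions of the genome. Regions of the LSD1(OE) library alone numbered 20 (33.9%, against 20.8% of all regions) and regions of the myogenic library alone 17 (28.8%, against 35.9%). Regions of the adipogenic and LSD1(OE) libraries without a myogenic peak numbered 5 (8.47%, against 2.45%), of which *Ppard* held 2 and *Pparg*, *Ppargc1b* and *Ebf1* 1 each. The remaining 6 were 4 of the myogenic and LSD1(OE) libraries, 1 of the myogenic and adipogenic libraries and 1 of the adipogenic library alone.

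At regions with a peak in both of a pair of libraries, tag densities could be set side by side without the scaling of the tags by MACS. The peaks were called separately in each library and differed in length, so a ratio of densities compares what was called and not the same bases. At the 12 regions with both a myogenic and an adipogenic peak, the density was lower in adipogenic medium at 10, with a median log2 ratio of −0.22 and a range from −0.72 at the *Ebf1* start to 0.22 at the second *Ppard* region in *Def6*, where the adipogenic peak was 1089 bp long and the myogenic peak 711 bp. Over all 14149 such regions of the genome the median was −0.32 and 88.2% were lower. Without division by the length called, 10 of the 12 were again lower, with a median of −0.46, against −0.50 and 76.5% lower over all. Between LSD1(OE) cells and myogenic medium, 10 of 15 regions were lower, with a median of −0.16, against −0.19 and 74.4% lower over all regions. Between LSD1(OE) cells and adipogenic medium, 11 of 16 regions were higher, with a median of 0.09, against 0.13 and 70.6% higher over all regions. The largest of these was 0.50, at the *Ebf1* promoter.

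**Figure D5:**
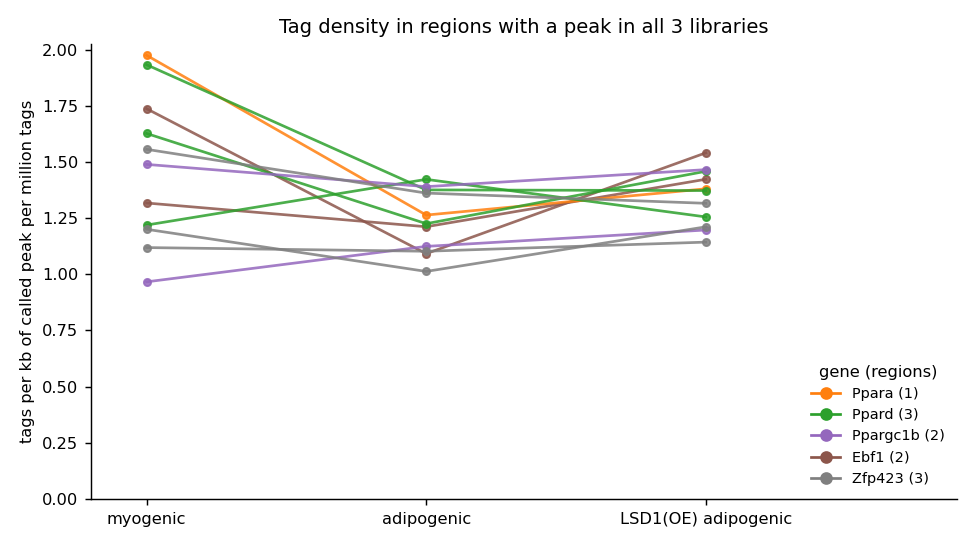
Tag density (tags per kb of called peak per 1000000 tags, vertical axis) in the 11 regions of these genes with a peak in all 3 libraries, with 1 line per region coloured by gene. The myogenic end is the highest at *Ppara* (1.97) and the *Ppard* region 8.8 kb before the TSS (1.93). The first lies by the TSS of the neighbouring gene *Cdpf1* and the second inside the neighbouring gene *Def6*. The lines come closer together in the other libraries.

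Genes that work with these regulators were taken as 4 lists. Of the 4 relatives of the families (*Pprc1*, *Mecom*, *Ebf3*, *Ebf4*), 3 had a promoter peak in the myogenic, 1 in the adipogenic and 2 in the LSD1(OE) library. A peak anywhere in the window was found at 4, 2 and 3 of them. The highest scores within the window were at *Pprc1*, the third PGC-1 family coactivator (954, 116 and 242), and at *Ebf3* (656, 57.9 and 194). Of 22 partners and coregulators of the PPARs and Prdm16, 19 had a promoter peak in the myogenic, 12 in the adipogenic and 17 in the LSD1(OE) library. Counted over the window, 20, 16 and 19 of them had a peak. The forkhead factor gene *Foxc2* had highest scores of 1421, 138 and 1016.

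Of 16 target genes of the PPARs, 8 had a promoter peak in the myogenic, 5 in the adipogenic and 7 in the LSD1(OE) library. Over the window the counts were 9, 9 and 11. In myogenic medium their highest scores were at *Cpt1a*, which admits fatty acids to mitochondria (2076, 594 and 1283), and at *Angptl4*, an inhibitor of lipoprotein lipase (1671, 741 and 1853). In LSD1(OE) cells the highest score of the list was at *Acsl1*, which activates fatty acids (774, 685 and 1865). Of 15 thermogenic and brown adipocyte genes, 3 had a promoter peak in the myogenic, 1 in the adipogenic and 2 in the LSD1(OE) library, and *Ucp1*, the uncoupling protein of brown fat, had no peak in any library. Over the window 5, 3 and 4 of that list had a peak. Its highest myogenic scores were at *Cidea*, a lipid droplet protein (286 in myogenic medium, none in adipogenic medium, 86.9 in LSD1(OE) cells), and at *Cox7a1*, a respiratory chain subunit (176, 56.1 and none). In the adipogenic and LSD1(OE) libraries the highest score of the list was at *Cited1*, a beige fat marker (none, 124 and 262). The shares of each list stand beside 46.8, 27 and 37.3% of all genes with a promoter peak and 62.5, 41.2 and 53.9% with a peak in the window, and these lists were chosen with earlier results of these data known.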

How the data were processed

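The Lsd1 ChIP and input reads (50 bp, single end) were mapped to mm10 by the authors with Bowtie. Peaks of each ChIP library were called by the authors against its own input with MACS 1.4.2 (p cut-off 1e-05), on single libraries, and all had an FDR under 1%. The deposited tag counts are counts of filtered ChIP tags per peak, not normalized. The score in the deposited lists is the −log10 of the p-value multiplied by 10, for which MACS scaled the ChIP tags up to the input, by 1.90, 1.28 and 1.82 in the myogenic, adipogenic and LSD1(OE) libraries, so that weak peaks passed more easily. The deposited fold enrichment was not compared between libraries. The deposited FDR is in percent and was estimated by MACS with the roles of both libraries exchanged. The adipogenic induction mix was given for 3 days per the labels, and for a shorter time per the methods, and the cells were taken on day 1.

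Genes and TSSs were the curated RefSeq transcripts of mm10 (31647 TSSs). Peaks were counted by their centre, promoters were 2000 bp either side of a TSS, and densities were tags per kb of called peak per 1000000 filtered tags. Motifs were searched as exact letters on both strands. Peaks around shared regions or of 1 gene are not replicates. No test was made, since each condition had 1 library. The members and gene lists were chosen with earlier results of these data known. All 10 genes are named, each with its strongest peak per library, its promoter peaks and its peaks of all 3 libraries, and from each list the 2 genes with the highest myogenic score, of which 1 is not reported here; other peaks and list genes were named after their values were seen. The steps were tested on simulated data. Python 3.11.15, NumPy 2.4.6, pandas 2.3.3, SciPy 1.17.1 and matplotlib 3.10.9 were used. The peak files in BED format were not used, since they hold the same peaks.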

Additional observations from a re-analysis of the deposited data

How the results depend on the processing

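The counts of peaks depended on the strength required of a peak. At an FDR of at most 0.1%, the 10 genes held 20, 10 and 19 peaks in the myogenic, adipogenic and LSD1(OE) libraries, with promoter peaks at 6, 1 and 3 of them. With equal peak numbers the myogenic and LSD1(OE) libraries had 17 and 25 peaks, LSD1(OE) promoter peaks were at 3 genes, and 64.7% of myogenic peaks overlapped an adipogenic one. For ChIP tags not scaled up, each score was divided by the scaling of its library and peaks under 50 were dropped. The peaks were not called again, so this setting is an approximation. With it the myogenic and LSD1(OE) libraries had 23 and 27 peaks and LSD1(OE) promoter peaks were at 3 genes. Under each of these 3 settings the LSD1(OE) promoter peaks of *Pparg*, *Ppara* and *Ebf2* were lost, and the myogenic one of *Ppargc1a* was lost too. With 50 kb either side of the gene the myogenic count was 55. Counting only peaks whose nearest TSS is of the gene itself gave 19, 10 and 22 peaks. In a choice made after seeing the data, tags at shared regions were not divided by the length called, and the median log2 ratio moved from −0.22 to −0.46 between adipogenic and myogenic medium and from 0.0875 to 0.0579 between LSD1(OE) cells and adipogenic medium. The other alternatives stayed within 1.5 times the counts or within the interval of the shares. With all RefSeq transcripts, *Ppargc1a* gained an adipogenic and an LSD1(OE) promoter peak. With 1 library per condition, no library could be left out. No paired analysis was possible because each condition had 1 library.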
